A study of Mus musculus with 18 samples.

Results

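Genes of fatty acid synthesis, elongation, desaturation, activation and oxidation were followed in splenic natural killer (NK) cells of mice, with and without Acly, across 3 states of activation. The set holds 38 genes, found by symbol in a table of 55487 genes: 4 of synthesis proper (Srebf1, Acaca, Acacb, Fasn), 8 of elongation and desaturation, 7 of activation and esterification, 3 of mitochondrial entry, 11 of the oxidation spiral, 3 of the electron transfer flavoprotein and its dehydrogenase, and 2 thioesterases (Acot7 and Acot9). The first 3 of these groups are called the synthesis side below, and mitochondrial entry, the spiral and the flavoprotein genes the oxidation side. Of the 38 genes, 37 passed the filter on low counts and entered the test over 14864 genes. Acacb, the mitochondrial-surface acetyl-CoA carboxylase, did not, at no more than 0.491 CPM (counts divided by library size, scaled by the TMM method) in any library.

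Control cells, called wild type (WT), came from Rosa YFP/YFP Ncr1 CRE-ERT2 mice, in which a tamoxifen-dependent Cre is made where Ncr1 is active and a YFP reporter is carried at Rosa. Knock-out (KO) cells carried the same Rosa YFP/YFP and Ncr1 CRE-ERT2 alleles and in addition Acly fl/fl. Mice of both genotypes received a tamoxifen diet for 48 h with cells sorted 5 days after its withdrawal. Acly encodes ATP-citrate lyase, which makes cytosolic acetyl-CoA from citrate. YFP+ splenic NK cells were taken fresh, after priming with interleukin-15 (IL-15) at 100 ng/ml for 72 h, or after priming, washing and 6 h of plate-bound stimulation (20 ug/ml) through NKG2D, an activating receptor of NK cells. Each of the 6 groups had 3 libraries. Sorting on YFP selects cells in which Cre acted on the reporter, and the share of cells that lost Acly was not measured.

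Fatty acid synthesis starts with acetyl-CoA carboxylase (Acaca), which makes malonyl-CoA, and fatty acid synthase (Fasn), which builds palmitate from it. Elongases (Elovl genes) lengthen the chain, stearoyl-CoA desaturases (Scd1, Scd2) place the first double bond, and the delta-5 and delta-6 desaturases (Fads1, Fads2) act on polyunsaturated chains. SREBP1, the product of Srebf1, and SREBP2 are transcription factors that drive these genes and those of cholesterol synthesis. In the other direction, Cpt1a, the carnitine carrier Slc25a20 and Cpt2 pass acyl chains into mitochondria, acyl-CoA dehydrogenases (Acadm, Acadl, Acadvl, Acads) and the trifunctional protein (Hadha, Hadhb) shorten them, and the flavoprotein Etfa/Etfb with Etfdh hands their electrons to the respiratory chain. In lymphocytes, lipid synthesis is known to rise with activation and growth. Acly is one of the suppliers of acetyl-CoA for synthesis.

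The libraries held 14772350 to 34367582 counted reads. KO primed replicate 1 was the smallest and stood apart with 14695 genes that had a read, against at least 17877 in each of the others. WT primed replicate 3 stood apart from its group for Srebf1 and Eci1, described below. Replicates spread most in primed cells: edgeR's biological coefficient of variation was 0.316 there, 0.218 after NKG2D and 0.162 when fresh. Acly averaged 250.3 ± 16.7 CPM (SD, n = 3) in WT and 18.9 ± 5.66 in KO fresh cells, 256 ± 26.9 and 42.8 ± 5.56 after priming, and 164 ± 32.9 and 36.3 ± 7.22 after NKG2D, with every KO library below every WT library of its state. All 10 NK cell markers looked at had reads in every group. The 10 markers of adipocytes, stroma and endothelium summed to at most 1.34 CPM in any library. Erythroid and platelet markers summed to 123 to 213 CPM in WT fresh and 27.8 to 30.3 CPM in KO fresh libraries, and to at most 1.81 CPM in any cultured library. T cell markers summed to 27.6 to 96.1 CPM and B cell markers to at most 12.9 CPM. The myeloid list was carried mostly by Itgam, which NK cells also express, so its sum says little of the other genes in it. In fresh cells Csf1r averaged 4.3 CPM in WT and 1.32 CPM in KO, and C1qb 4.92 and 1.6 CPM. Of 8 tested myeloid markers 7 had a negative and 1 a positive log2 difference there, with 0 past the threshold. Whether replicates came from separate mice is not in the labels; the p-values below reflect library-to-library spread, which may be technical.

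Promoter sequence was read for some of the members called in the genotype comparison of primed cells. Each stretch is the 120 bases before the RefSeq start (GRCm38.p6), written 5' to 3' on its gene's strand. Fasn and Cpt1a are shown because they were higher, and Etfb and Slc25a20 because they were lower, in primed KO than in primed WT cells. Capitals mark CCAAT boxes (CCAAT, or ATTGG on the other strand) and GC boxes (GGGCGG or CCGCCC).
Fasn: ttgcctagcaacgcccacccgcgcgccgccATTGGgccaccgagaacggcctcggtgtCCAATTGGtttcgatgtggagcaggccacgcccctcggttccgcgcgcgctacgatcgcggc
Cpt1a: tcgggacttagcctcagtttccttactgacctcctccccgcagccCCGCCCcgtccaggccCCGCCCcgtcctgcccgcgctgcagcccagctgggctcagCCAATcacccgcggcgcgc
Etfb: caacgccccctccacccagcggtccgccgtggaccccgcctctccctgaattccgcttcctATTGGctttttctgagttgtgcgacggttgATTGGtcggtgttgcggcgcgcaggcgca
Slc25a20: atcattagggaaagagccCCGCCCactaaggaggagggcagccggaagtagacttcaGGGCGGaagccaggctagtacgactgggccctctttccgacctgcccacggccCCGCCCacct
The Fasn stretch lies at chr11:120824548-120824667 on the minus strand and holds 3 CCAAT boxes, of which a pair share bases. The Cpt1a stretch (chr19:3323181-3323300, plus strand) holds 1 CCAAT box and 2 GC boxes, that of Etfb (chr7:43443952-43444071, plus) 2 CCAAT boxes, and that of Slc25a20 (chr9:108662016-108662135, plus) 3 GC boxes. Over windows of 250 bases before to 50 after the start, searched on both strands, 17 of 37 promoters of 32 members held a CCAAT box (45.9%) and 25 a GC box (67.6%), against 37.4% and 35.7% of 32851 promoters in all. In the cholesterol synthesis genes listed beside them, 15 of 19 promoters held a CCAAT box (78.9%). One spelling of the sterol regulatory element (TCACNCCAC) stood in 1 member promoter, that of Acsl1, and in 1.24% of all promoters. The E-box CACGTG stood in 1, that of Elovl5, against 7.15% of all. The DR1 element, searched as AGGNCANAGGNCA, stood in 1, that of Elovl1, against 0.381% of all. These are matches of letters and not measured binding. No promoter is shown or searched for Scd1, Scd2, Fads1, Dgat1, Dgat2 and Acaa2.

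Per kilobase of exon, levels in fresh WT cells ranged widely on both sides. Acot7, a cytosolic acyl-CoA thioesterase, was at 114 CPM per kb, Acadvl, the very-long-chain dehydrogenase, at 71.3 and Etfb at 70.7. Among oxidation genes Acadm was at 8.56, Echs1 at 8.30 and Cpt1a at 6.27 on the same scale. Among synthesis genes Elovl1 was at 48.3, Elovl5 at 27.9 and Acsl5 at 25.5, while Fasn was at 5.51, Acaca at 0.69, Scd1 at 0.04 and Fads2 at 0.02. The desaturase isoforms differed widely: Scd2 was at 14.7 CPM per kb when fresh and 58.3 after priming in WT cells, against 0.04 and 4.17 for Scd1. Primed WT cells had Etfb (222 CPM per kb) and Acot7 (183) as the highest members. The sources used here do not state how reads shared by near-identical genes were assigned or whether strand was used, so the values of Scd1, which lies beside its close relatives on chromosome 19, and of Acaa1a, which has the near-identical copy Acaa1b, are uncertain to that extent.

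**Figure D1:**
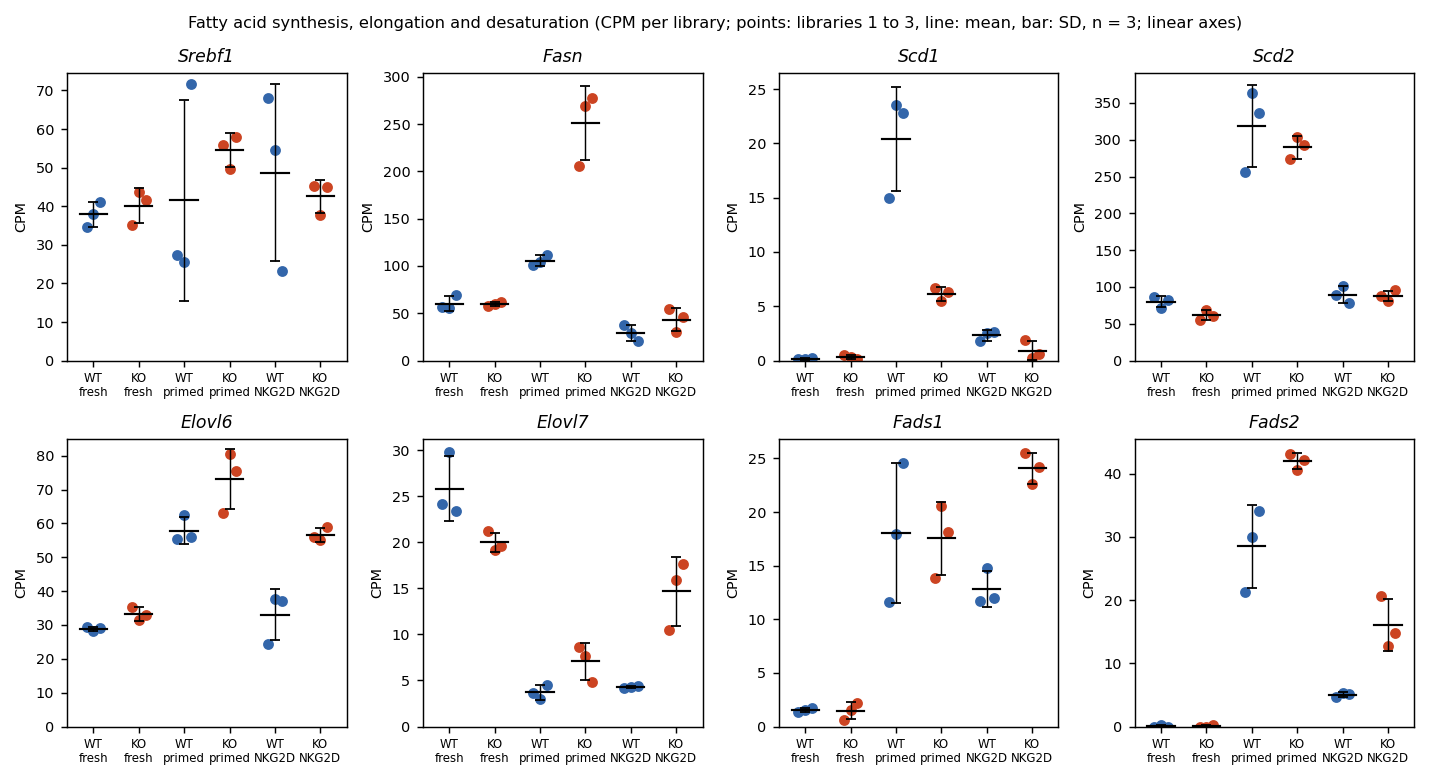
Level of 8 synthesis, elongation and desaturation genes in CPM (vertical axes, linear, from 0) in every library of WT (blue) and KO (red) cells that were fresh, IL-15 primed or NKG2D stimulated; lines are means and bars SD over 3 libraries. Fasn reached 206 to 278 CPM in primed KO and 101 to 112 CPM in primed WT cells, while Scd1 was at 5.45 to 6.7 and 14.9 to 23.6 CPM in the same groups.

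From fresh to IL-15 primed cells most genes of the synthesis side rose in both genotypes. No group was cultured for 72 h without IL-15, so the effects of IL-15 and of culture cannot be told apart. The desaturase genes Fads2, Scd1 and Fads1 went from at most 2.2 CPM in any fresh library to at least 5.45 CPM in every primed one. In WT cells 17 of 37 members rose and 6 fell, where 53.7% of all tested genes changed (26.5% rose and 27.2% fell). In KO cells 14 rose and 9 fell, where 48.7% of all tested genes changed (23.0% rose and 25.7% fell). Fresh and primed libraries did not overlap for 64.1% of all tested genes in WT and 57.5% in KO. On the synthesis side 12 of 18 rose and 2 fell in each genotype, with a median log2 change of 0.69 in WT and 1.00 in KO cells, against -0.06 over all tested genes in each. Over the 2 genotypes, 12 members rose in both (70.6% of those in WT and 85.7% of those in KO) and 5 fell in both, and the genotypes share no library in this comparison.

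Fads2, the delta-6 desaturase, was at 0, 0.188 and 0 CPM in the fresh WT libraries and at 21.3, 30 and 34.2 CPM in the primed ones. In KO cells it was at 0, 0 and 0.248 CPM when fresh and 43.2, 40.7 and 42.2 CPM when primed. The gene was thus all but unread in fresh cells, with 4 counts in WT and 8 in KO over 3 libraries each, and read in every primed library. The fitted log2 changes of 8.76 (SE 0.584) and 8.58 (SE 0.539) therefore rest on very few fresh reads (edgeR quasi-likelihood, adjusted p = 1.36e-09 and 6.2e-10). Without WT fresh replicate 2 the WT value was 12.4, and without KO fresh replicate 3 the KO value was 12.9, since the fresh libraries that remain hold no read, so the size of the rise is not fixed by these data. Its neighbour Fads1, the delta-5 desaturase, lies on the other strand of chromosome 19 (10182888 to 10196877 in mm10, with Fads2 at 10062765 to 10101746). It stood at 1.32, 1.55 and 1.73 CPM in fresh WT and 11.6, 17.9 and 24.6 in primed WT libraries. In KO libraries it was at 0.635, 1.55 and 2.2 CPM when fresh and 13.9, 20.6 and 18.1 when primed. Fads1 rose by 3.57 (SE 0.334) and 3.55 (SE 0.331) on the log2 scale, with no overlap between fresh and primed libraries in either genotype (adjusted p = 9.94e-08 and 1.17e-07).

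The stearoyl-CoA desaturases rose as well. Scd1 (chromosome 19, 44394455 to 44407879, minus strand) went from 0.116, 0.141 and 0.262 CPM to 14.9, 23.6 and 22.8 CPM in WT cells, from 3, 3 and 5 counts to between 316 and 741. In KO cells it went from 0.544, 0.3 and 0.186 CPM to 6.7, 5.45 and 6.35 CPM. The log2 rise was 6.88 (SE 0.597) in WT and 4.19 (SE 0.532) in KO (adjusted p = 3.78e-08 and 4.82e-06). Scd2, the isoform with more reads here, lies at 44293674 to 44306864 on the plus strand of the same chromosome. It was at 86.5, 72.1 and 81.7 CPM in fresh WT and 256, 363 and 336 CPM in primed WT libraries, and at 55.2, 69 and 61.1 and then 273, 303 and 293 CPM in KO. That is a rise of 3.97-fold in WT and 4.69-fold in KO, with SEs of 0.136 and 0.137 on the log2 scale (adjusted p = 1.78e-09 and 4.63e-10).

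Of the core genes, Fasn and Acaca rose and Srebf1 did not pass the test. Fasn (chromosome 11, 120805846 to 120824547, minus strand) was at 56.3, 55.3 and 69.4 CPM in fresh WT and 101, 104 and 112 CPM in primed WT libraries. In KO libraries it was at 57.5, 60.2 and 61.9 CPM when fresh and 206, 269 and 278 CPM when primed. Fresh and primed libraries did not overlap in either genotype, and the rise was 1.75-fold in WT and 4.19-fold in KO (log2 0.81, SE 0.202, and 2.07, SE 0.207; adjusted p = 0.00271 and 2.91e-07). Acaca was at 12.2, 11.7 and 11.5 CPM in fresh WT and 16.2, 21.1 and 20.5 in primed WT libraries. In KO libraries the values were 12.2, 14.2 and 10 and then 19.7, 19.4 and 21.8 CPM. Its log2 rise was 0.70 in WT and 0.74 in KO (adjusted p = 0.00492 and 0.0039). Srebf1 was at 34.7, 38 and 41 CPM in fresh WT libraries and at 27.3, 25.5 and 71.6 in primed WT libraries, where replicate 3 alone lay above the fresh range. In KO cells it was at 35.1, 43.7 and 41.7 and then 55.8, 49.6 and 58 CPM, with a log2 change of 0.44 that did not pass.

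Elongases moved in both directions. Elovl6, which carries palmitate to stearate, was at 29.3, 28.3 and 29 CPM in fresh and 55.3, 62.3 and 56 CPM in primed WT libraries, and at 35.3, 31.3 and 33.1 and then 63.2, 80.6 and 75.4 CPM in KO. It rose 2.01-fold in WT and 2.2-fold in KO cells (adjusted p = 1.26e-05 and 3.95e-06). Elovl7, an elongase of long-chain acyl-CoAs, went the other way, from 24.1, 29.8 and 23.4 CPM to 3.68, 2.95 and 4.55 CPM in WT. In KO cells it fell from 21.2, 19.2 and 19.6 CPM to 8.65, 7.67 and 4.86 CPM. The log2 fall was -2.78 (SE 0.232) in WT and -1.51 (SE 0.221) in KO (adjusted p = 2.31e-08 and 2.48e-05). Elovl5 rose in both genotypes (0.58 and 0.66) and Elovl1 rose in WT (0.56) and had a log2 change of 0.26 in KO.

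Among the acyl-CoA synthetases, which activate free fatty acids, Acsl3, Acsl4 and Acsl5 rose in both genotypes. Acsl5 was at 115, 126 and 131 CPM in fresh and 199, 201 and 183 CPM in primed WT libraries, and at 136, 128 and 121 and then 158, 172 and 178 CPM in KO (log2 0.65 and 0.40). Acsl4, which prefers arachidonate, had group means of 42.6 and 108 CPM in WT and 47.1 and 115 CPM in KO (log2 1.34 and 1.29). Gpam, the mitochondrial glycerol-3-phosphate acyltransferase, was at 3.14, 1.55 and 2.15 CPM in fresh and 2.69, 4.2 and 3.99 CPM in primed WT libraries. In KO it was at 2.9, 2.45 and 1.33 and then 1.27, 3.19 and 2.65 CPM, and it passed the test in neither. Dgat1, which makes triacylglycerol, fell in both (log2 -1.27 and -1.69). Dgat2, the other enzyme of that step, was near 0: over 3 libraries it had 2 counts in fresh WT and 1 in fresh KO cells, and 2, 1 and 0 counts in primed WT against 0, 28 and 37 in primed KO libraries. It passed the test in KO (adjusted p = 0.00332), though KO primed replicate 1 held no read of it.

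On the oxidation side priming gave no common direction in WT cells, where 4 of 17 rose and 4 fell (median 0.07), and in KO cells 2 rose and 7 fell (median -0.32). Cpt1a, whose enzyme is inhibited by malonyl-CoA and sets the rate of entry, was at 53.4, 47.1 and 43.3 CPM in fresh and 24.6, 22.8 and 23 CPM in primed WT libraries. In KO it was at 42.3, 49.1 and 52.3 and then 34.1, 31 and 30.5 CPM. The fall was 2.04-fold in WT and 1.5-fold in KO (log2 -1.03, SE 0.123, and -0.59, SE 0.122; adjusted p = 1.84e-06 and 0.000699). Slc25a20 stayed within its fresh range in WT, at 37.4, 31.4 and 29.3 and then 31.2, 35 and 28.9 CPM, apart from replicate 3, which lay just under it. In KO it fell from 33.9, 32.6 and 37 CPM to 9.92, 21.6 and 18.5 CPM (log2 -1.04, SE 0.199, adjusted p = 0.000343), with KO primed replicate 1, the smallest library, the lowest.

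Etfb was the oxidation gene with the widest split. It was at 94.9, 68.1 and 83.7 CPM in fresh WT and 261, 277 and 238 CPM in primed WT libraries, a 3.14-fold rise (log2 1.65, SE 0.146, adjusted p = 4.84e-08). In KO it was at 97.3, 97.2 and 99.3 and then 98.2, 110 and 141 CPM, a log2 change of 0.25 (SE 0.143) that did not pass (adjusted p = 0.16). Its partner Etfa rose in both, by 0.52 and 0.63. Acaa2, the mitochondrial thiolase that ends each turn of the spiral, was at 77.2, 73.8 and 73.5 CPM in fresh and 79.6, 87.2 and 75.4 CPM in primed WT libraries. In KO it fell from 85, 86.7 and 98.7 CPM to 47.1, 47.5 and 47.8 CPM (log2 -0.93, SE 0.129, adjusted p = 1.41e-05).

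Acadvl, Acadm and the trifunctional protein genes changed by at most 0.41 on the log2 scale, up or down. Acadvl was at 190, 193 and 191 CPM in fresh and 168, 164 and 163 CPM in primed WT libraries, and at 209, 195 and 204 and then 157, 146 and 154 CPM in KO (log2 -0.22 and -0.41, both past the threshold). Acadm, the medium-chain dehydrogenase, was at 30.4, 37.1 and 33 and then 27.8, 30.9 and 29.1 CPM in WT, and at 34.8, 34.8 and 35.9 and then 30.4, 27 and 27.2 CPM in KO, where it fell by 0.32 on the log2 scale. Hadha was at 111, 118 and 104 and then 150, 161 and 132 CPM in WT (log2 0.41, past the threshold). In KO it was at 132, 123 and 129 and then 137, 141 and 144 CPM (0.13, not past it). Hadhb, head to head with Hadha on chromosome 5 (30155248 to 30184593 against 30118304 to 30155162), averaged 166 CPM in fresh and primed WT cells, had a log2 change of 0.07 in KO, and passed in neither. Acadl, the long-chain dehydrogenase, averaged 24.4 CPM in fresh and 46.8 CPM in primed KO cells and rose there (log2 0.94), against 46.6 and 68.5 CPM in WT, where it did not pass. Eci1, an isomerase for unsaturated chains, was at 37.2, 41.2 and 47.4 CPM in fresh and 11.2, 7.8 and 32.6 CPM in primed WT libraries, where replicate 3 stood apart as it did for Srebf1. The WT fall of 1.27 in log2 ranged from -2.13 to -0.91 when a library was left out, and was no longer past the threshold without WT fresh replicate 3 or WT primed replicate 1 or 2. Calls of Acadvl in WT were lost without any 1 of its 6 libraries (-0.22 to -0.20), those of Acadm in KO without any 1 library but KO primed replicate 1 (-0.32 to -0.26), and those of Acaa1a without WT fresh replicate 1 in WT (-2.38 to -0.90 over the libraries left out) and without any 1 library but KO primed replicate 2 in KO (-1.41 to -1.003). Also lost were Cpt2 in WT (WT fresh replicate 1 or 2, WT primed replicate 3) and Echs1 in KO (KO fresh replicate 3, KO primed replicate 1).

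Fresh and primed libraries also differed in cell markers. Of 8 tested erythroid and platelet markers 8 fell in WT and 7 in KO. Of 8 tested myeloid markers 7 fell in WT and 6 in KO, with summed levels going from 513 to 616 CPM to 126 to 165 CPM in WT, while Cd68 rose in both (12.7 to 56.7 CPM in WT). Of 10 NK cell markers 6 fell in WT and 8 in KO. Of 5 markers of type 1 innate lymphoid cells (ILC1), close relatives of NK cells, 2 rose and 1 fell in each genotype; those that rose were Cxcr6 (21.5 to 96.5 CPM in WT) and Itga1 (8.34 to 22.9 CPM). In bulk RNA, fewer cells of a type and less RNA per cell cannot be told apart, and the part of these cells in the values of the members was not tested.

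**Figure D2:**
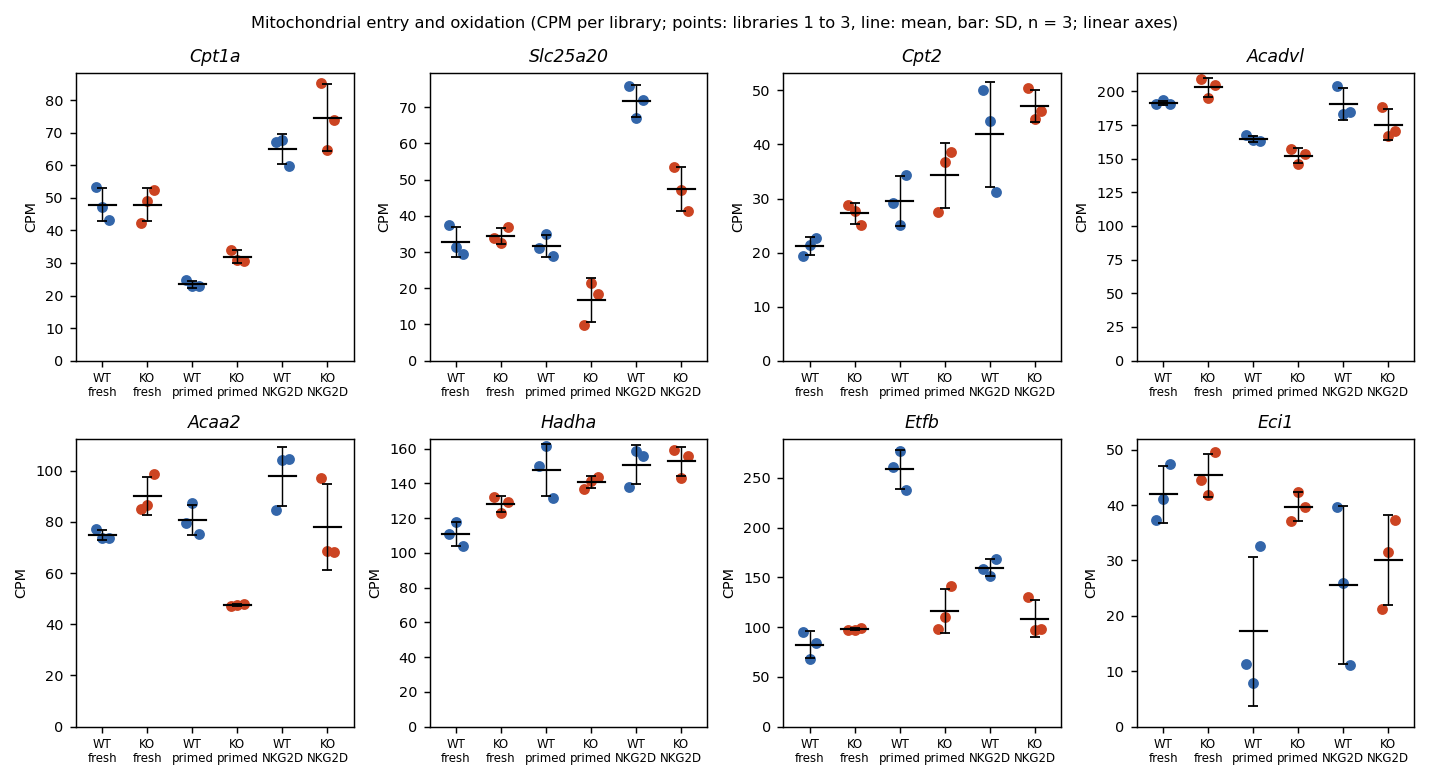
Level of 8 genes of mitochondrial entry and oxidation in CPM (vertical axes, linear, from 0) in every library, coloured and ordered by group from fresh to NKG2D; lines are means and bars SD over 3 libraries. Etfb stood at 238 to 277 CPM in primed WT cells and at no more than 169 CPM in any other library, and Cpt1a and Slc25a20 were highest in the NKG2D groups.

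After 6 h of stimulation through NKG2D, synthesis genes fell and those of mitochondrial entry rose against primed cells, in both genotypes. The stimulated cells had also been washed and kept 6 h longer, and no group was washed and left unstimulated. The effects of NKG2D, washing and added time therefore cannot be told apart. In WT cells 6 of 37 members rose and 10 fell, where 19.9% of all tested genes changed (9.20% rose and 10.7% fell). In KO cells 11 rose and 12 fell, where 35.3% of all tested genes changed (18.4% and 16.9%). Primed and NKG2D libraries did not overlap for 39.3% of all tested genes in WT and 43.1% in KO. On the synthesis side 0 rose and 9 fell in WT (median -0.58) and 2 rose and 11 fell in KO (median -0.56), against medians of -0.01 and 0.04 over all tested genes. On the oxidation side 5 rose and 1 fell in WT (median 0.25) and 8 rose and 1 fell in KO (median 0.30). Of the 10 members that fell in WT, 9 also fell in KO (75% of the KO falls), and all 6 that rose in WT also rose in KO (54.5% of the KO rises). These comparisons use the same primed libraries as those of priming, so a library that was high when primed moves both in opposite directions. The 6 rises in WT became 2 without WT primed replicate 1 and 3 without WT NKG2D replicate 2 or 3, and the 11 in KO became 7 without KO NKG2D replicate 3. Of 10 NK cell markers 5 fell in WT and 7 in KO, and of 8 tested myeloid markers 0 rose in WT and 3 in KO. ILC1 markers summed to 113 to 246 CPM when primed and 247 to 416 CPM after NKG2D in WT, and to 155 to 194 and 339 to 383 CPM in KO. In WT means Cxcr6 went from 96.5 to 171 CPM, Itga1 from 22.9 to 79 CPM and Il7r from 7.62 to 19 CPM. Tmem176a was at 14.9 and then 14.1 CPM in WT and 13 and 12.2 CPM in KO. Tmem176b was at 22.6 CPM in both states in WT and at 14.9 and 15.4 CPM in KO. The part of these cells in the members' values was not tested.

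Fasn went down to 38, 28.9 and 20.9 CPM in WT and to 54, 29.8 and 45.5 CPM in KO libraries, from 101 to 112 and 206 to 278 CPM when primed. The falls were 3.6-fold and 5.82-fold (log2 -1.85, SE 0.207, and -2.54, SE 0.211; adjusted p = 6.59e-06 and 8.8e-08). Every NKG2D library of either genotype was below every fresh library. Acaca went to 13.5, 11.8 and 8.62 CPM in WT and 9.69, 7.02 and 6.24 CPM in KO (log2 -0.76 and -1.41). Srebf1 was at 67.9, 54.7 and 23.3 CPM in WT, where replicate 3 was now the lowest, and at 45.1, 37.6 and 44.9 CPM in KO, and passed the test in neither.

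Scd1 fell to 1.77, 2.53 and 2.67 CPM in WT and 1.93, 0.234 and 0.612 CPM in KO (log2 -3.14, SE 0.449, and -2.72, SE 0.471). The KO value was -3.82 without KO NKG2D replicate 1, the highest of the 3. Scd2 fell to 89, 101 and 78.6 CPM and to 87.7, 80.7 and 95.2 CPM, a 3.55-fold and 3.3-fold drop, with fresh levels of 55.2 to 86.5 CPM for comparison. Fads2 fell to 4.68, 5.29 and 5.2 CPM in WT (log2 -2.50, SE 0.35) and 20.7, 12.8 and 14.8 CPM in KO (-1.38, SE 0.331). In both genotypes the primed and NKG2D libraries of these 3 genes lay apart. Fads1 was at 11.7, 14.7 and 11.9 CPM in WT and 25.5, 22.6 and 24.2 CPM in KO, with log2 changes of -0.50 and 0.46 that passed in neither. Elovl6 was at 24.3, 37.6 and 37.2 CPM in WT and 55.9, 55 and 59 CPM in KO (log2 -0.81 and -0.37). Elovl7 was at 4.14, 4.29 and 4.45 CPM in WT, within the primed range, and rose in KO to 10.5, 15.9 and 17.7 CPM (log2 1.06, SE 0.22, adjusted p = 0.00117). Acsl5 went to 122, 127 and 129 CPM in WT and 106, 104 and 107 CPM in KO (log2 -0.62 and -0.67).

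All 3 genes of mitochondrial entry rose in both genotypes. Cpt1a reached 67.3, 67.9 and 59.9 CPM in WT and 85.2, 64.7 and 74 CPM in KO, a 2.77-fold and 2.34-fold rise (log2 1.47, SE 0.124, and 1.23, SE 0.123; adjusted p = 3.22e-07 and 7.16e-07). Slc25a20 reached 75.9, 67.1 and 72.1 CPM in WT and 53.6, 47 and 41.4 CPM in KO (log2 1.18, SE 0.197, and 1.498, SE 0.201). Both stood above their fresh levels in every NKG2D library of either genotype. Cpt2, on the inner membrane, rose less (0.50 and 0.46), and its calls were lost in 4 of 6 leave-one-out fits in each genotype (WT NKG2D or primed replicate 1 or 2; KO NKG2D replicate 1 or 3 and KO primed replicate 1 or 2), with log2 changes of 0.35 to 0.66 and 0.30 to 0.55.

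In the spiral, Acadm and Acads, the short-chain dehydrogenase, rose in both genotypes (log2 0.38 and 0.30 for Acadm, 0.63 and 1.02 for Acads). Acadm was at 36, 37.2 and 41.1 CPM in WT and 33.8, 36.3 and 33.9 CPM in KO. Acaa2 rose in KO to 97.3, 68.5 and 68.2 CPM (log2 0.72, adjusted p = 0.000341) and was at 84.5, 104 and 105 CPM in WT (0.28, not past the threshold). Acadvl was at 204, 183 and 185 CPM in WT and 188, 167 and 170 CPM in KO, and Hadha at 138, 159 and 156 and at 159, 143 and 156 CPM, without passing. Etfb fell in WT to 158, 152 and 169 CPM (log2 -0.70, SE 0.143, adjusted p = 0.00196) and in KO was at 130, 97.1 and 98.2 CPM (-0.10). Eci1 was at 39.7, 25.9 and 11.1 CPM in WT and 21.3, 31.4 and 37.3 CPM in KO. Several smaller calls were lost when 1 library was left out. In WT these were Acsl3 (without any 1 library but WT NKG2D replicate 3), Acads and Acot9 (any but WT primed replicate 2), Acadm (WT NKG2D replicate 3, WT primed replicate 1 or 3) and Acsl4 (WT NKG2D replicate 3). In KO they were Elovl5 (any but KO primed replicate 3), Elovl6 (any but KO primed replicate 1), Hadh (any but KO NKG2D replicate 2), Acadm (KO NKG2D or primed replicate 2 or 3), Dgat1 (KO NKG2D replicate 3, KO primed replicate 1), and Acsl3 and Etfa (KO primed replicate 2).

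**Figure D3:**
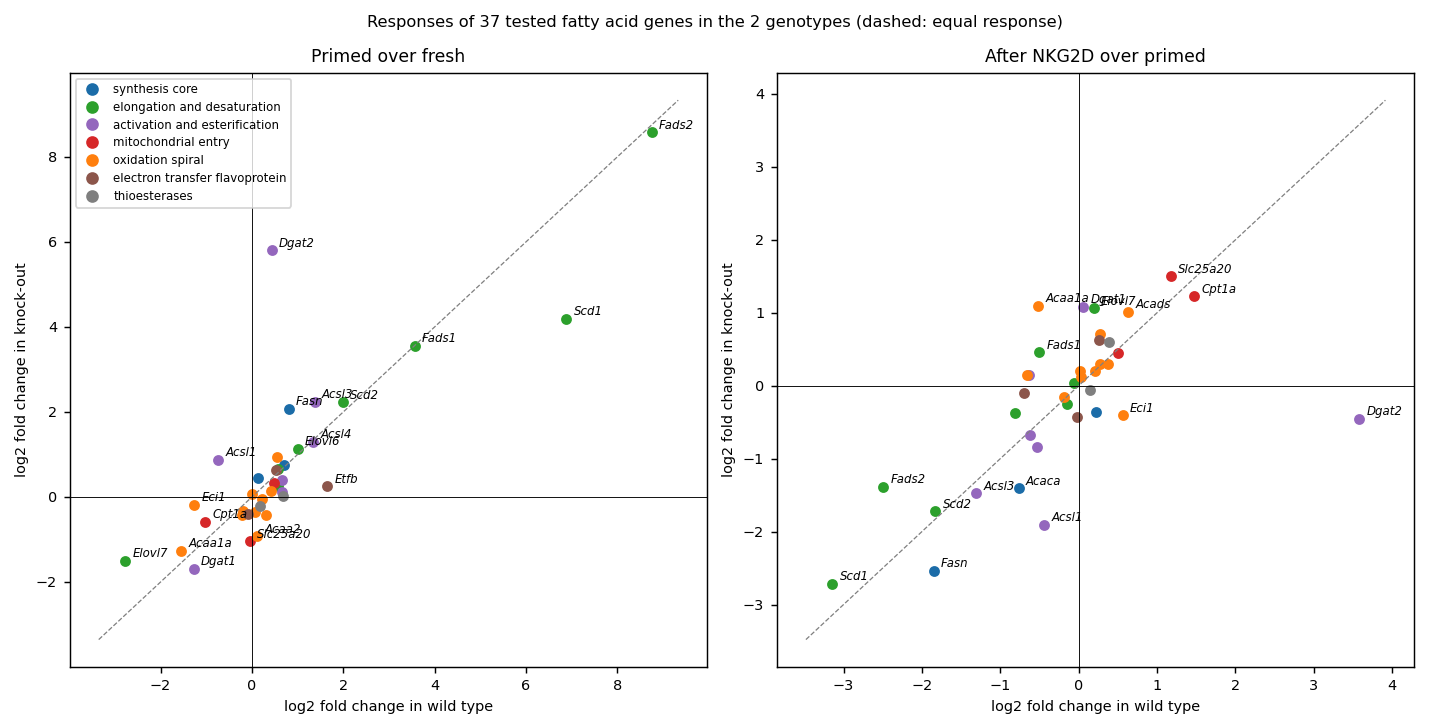
Log2 fold change of the 37 tested members in WT (horizontal) against KO (vertical), for priming (left) and NKG2D (right), with colours for the member groups and a dashed line of equal response. In the left panel Fasn lies above the line (0.81 in WT, 2.07 in KO), and Scd1 (6.88, 4.19) and Etfb (1.65, 0.25) lie below it; Dgat2 rests on few counts.

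In fresh cells no member's level was called different between the genotypes. Of 37 members 0 passed edgeR's test, where 0.0673% of all tested genes did (0.0135% higher and 0.0538% lower); 8 had an unadjusted p under 0.05. DESeq2 called 0 members, where it called 0.922% of all tested genes, and limma voom with quality weights 8, where it called 12.8%. KO and WT libraries did not overlap for 15 of 37 members, where 27.0% of all tested genes did not. Fasn had a log2 difference of -0.01 (95% interval -0.43 to 0.41), Acaca of 0.04 (-0.36 to 0.44) and Srebf1 of 0.09 (-0.63 to 0.81) while Cpt1a averaged 47.9 CPM in both (interval of the log2 difference -0.26 to 0.25). Scd2 was lower in every KO library (55.2 to 69 against 72.1 to 86.5 CPM), with a log2 difference of -0.37 (adjusted p = 0.248). Wider gaps that also did not pass were those of Acadl, at 26.5, 23.9 and 22.7 CPM in KO against 56.5, 47.1 and 36.1 CPM in WT (log2 -0.94, 95% interval -1.52 to -0.35, adjusted p = 0.209), and Acaa1a, at 12.7, 13.9 and 14.8 against 57.5, 25.6 and 17.3 CPM (-1.28, -2.21 to -0.35, adjusted p = 0.239). Acot7 was higher in every KO library (log2 0.35, adjusted p = 0.326). The authors' deposited table gives Acadl a log2 fold change of -0.905 with an adjusted p of 0.00191. Erythroid and platelet markers moved with this comparison in both directions. Of 8 tested, 5 had a negative log2 difference, 4 of them past the threshold, and 3 a positive one. Hbb-bs averaged 50.4 CPM in WT and 4.63 CPM in KO, and the platelet gene Pf4 3.3 and 4.63 CPM. Of 8 tested myeloid markers 7 had a negative and 1 a positive log2 difference. Of these myeloid markers 0 passed, with 4 at an unadjusted p under 0.05. The part of these cells in the members' values was not tested.

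After priming, KO cells had more Fasn and less Scd1, Etfb, Acaa2 and Slc25a20 than WT cells. Of 37 members 5 were higher and 5 lower, 27.0% of them, where 15.5% of all tested genes were called (8.52% lower, the rest higher). The members' median log2 difference was -0.05, against -0.02 over all genes. The higher ones were Fasn, Elovl7, Acsl1, Dgat2 and Cpt1a, and the lower ones Scd1, Slc25a20, Acaa2, Etfb and Acot9. On the synthesis side 4 of 18 were higher and 1 lower, and on the oxidation side 1 of 17 was higher and 3 lower. Their per-library values or counts are given above or below. For all 10 genes but Dgat2, which were picked by the test, the 3 KO libraries lay apart from the 3 WT libraries. Over all 37 members they did not overlap for 19, where 31.6% of all tested genes did not.

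Fasn averaged 250.99 ± 39.2 CPM in KO and 106 ± 5.85 CPM in WT primed cells (SD, n = 3), a 2.38-fold difference (log2 1.25, SE 0.202, 95% interval 0.82 to 1.68, adjusted p = 0.000508). Scd1 averaged 6.17 ± 0.644 against 20.4 ± 4.78 CPM, 3.31-fold lower in KO (log2 -1.73, SE 0.421, adjusted p = 0.01). Scd2 did not pass, at 290 ± 15.2 and 318 ± 55.9 CPM (log2 -0.14, 95% interval -0.41 to 0.14). Acaca was likewise close, at 20.3 and 19.2 CPM (0.08, -0.32 to 0.48). Elovl7 was 1.87-fold higher in KO (adjusted p = 0.0123). Acsl1, a synthetase for long chains, was at 10.5, 7.1 and 6.54 CPM in KO and 2.83, 2.13 and 4.89 CPM in WT (log2 1.27, SE 0.416, adjusted p = 0.0466). In fresh cells Acsl1 was at 5.65, 6.8 and 4.14 CPM in WT and 5.26, 4.85 and 3.13 CPM in KO, and after NKG2D at 3.08, 2.77 and 1.45 and at 0.839, 3.23 and 2.36 CPM.

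Etfb averaged 116 ± 22 CPM in KO and 259 ± 19.8 CPM in WT primed cells, 2.22-fold lower in KO (log2 -1.15, SE 0.144, 95% interval -1.45 to -0.85, adjusted p = 5.41e-05). Acaa2 was 1.7-fold lower, at 47.5 ± 0.352 against 80.7 ± 5.95 CPM (log2 -0.77, SE 0.129, adjusted p = 0.000705). Slc25a20 was 1.89-fold lower, at 16.7 ± 6.03 against 31.7 ± 3.06 CPM (log2 -0.92, SE 0.199, adjusted p = 0.00467). Cpt1a, one step before Slc25a20, was higher in KO, at 31.9 ± 1.96 against 23.5 ± 1.03 CPM (log2 0.44, SE 0.123, adjusted p = 0.0212). Acot9, a mitochondrial thioesterase, was at 71.3, 78.5 and 77.6 CPM in KO and 95, 115 and 87.7 CPM in WT (log2 -0.39, adjusted p = 0.0404). Of the 11 spiral genes Acaa2 alone was called. Eci1 was higher in every KO library (37.1 to 42.4 against 7.8 to 32.6 CPM), with an adjusted p of 0.0674.

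Calls of Fasn, Scd1, Acaa2 and Etfb held in every other fit tried, and that of Slc25a20 was lost where the primed libraries were fitted alone. Elovl7 was not past the threshold without WT primed replicate 2 (log2 0.78, adjusted p = 0.0618), Cpt1a without WT primed replicate 2 or 3 or KO primed replicate 1 (0.41 to 0.48), Acsl1 and Acot9 without any 1 library but WT primed replicate 3 (1.06 to 1.69 and -0.47 to -0.25), and Dgat2 without any 1 library but KO primed replicate 1. Fitted on the primed libraries alone, Elovl7, Cpt1a, Acsl1 and Acot9 were not called either. Without WT primed replicate 2 the count of 10 became 5, with 1 higher, and without WT primed replicate 1 or KO primed replicate 2 or 3 the 5 higher members became 3. T cell markers summed to 43 to 77.9 CPM in WT and 32.5 to 41 CPM in KO primed libraries, but did not move together. Of 6 tested, 3 had a positive and 3 a negative log2 difference, and 1 passed, lower in KO. Cd3g averaged 32 CPM in WT and 10.4 CPM in KO, and Trac 13.1 and 17.4 CPM. Of 10 NK cell markers 2 were higher and 2 lower in KO, and of 8 tested myeloid markers 1, Cd68, was lower (39.2 against 56.7 CPM). The part of these cells in the primed genotype comparison was not tested.

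**Figure D4:**
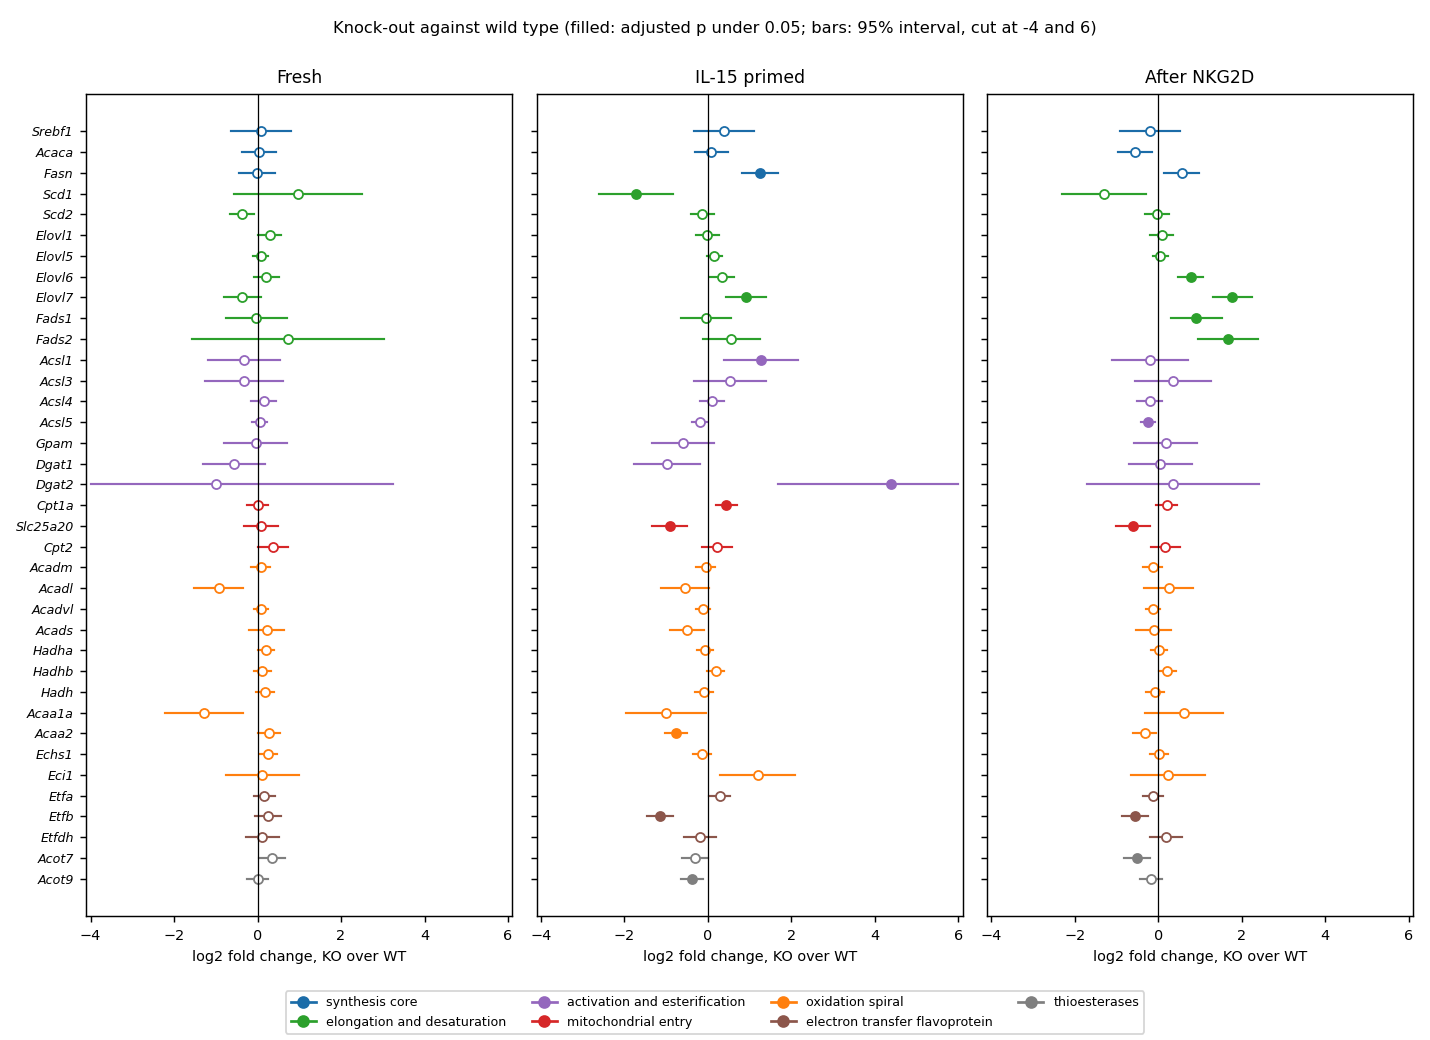
Log2 fold change of KO over WT for each tested member in fresh, primed and NKG2D-stimulated cells, with 95% intervals as bars (those past -4 or 6 end there), filled points for adjusted p under 0.05 and colours for member groups. No point is filled in the fresh panel; in the primed panel Fasn is at 1.25 and Etfb at -1.15, and after NKG2D Elovl7 is at 1.77 and Fads2 at 1.67.

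After NKG2D the members that were higher in KO were all elongases or desaturases. Of 37 members 4 were higher in KO and 4 lower, where 18.2% of all tested genes were called (8.75% higher and 9.47% lower), and the median over members was 0.02, against 0.03 over all genes. The higher ones were Elovl6, Elovl7, Fads1 and Fads2, of the 8 genes of elongation and desaturation. In primed cells, where Elovl7 was called too, Fads2 and Elovl6 were also higher in every KO library, without passing. Fads2 was at 40.7 to 43.2 against 21.3 to 34.2 CPM there, and Elovl6 at 63.2 to 80.6 against 55.3 to 62.3 CPM. Fads1 overlapped (13.9 to 20.6 against 11.6 to 24.6 CPM). The lower ones were Acsl5, Slc25a20, Etfb and Acot7. KO libraries lay apart from WT libraries for these 8, which were picked by the test. Over all 37 members they did not overlap for 11, where 34.8% of all tested genes did not.

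Elovl7 averaged 14.7 ± 3.75 CPM in KO and 4.29 ± 0.154 CPM in WT cells, 3.42-fold higher (log2 1.77, SE 0.225, 95% interval 1.30 to 2.25, adjusted p = 5.5e-05). Fads2 averaged 16.1 ± 4.09 against 5.06 ± 0.329 CPM, 3.19-fold higher (log2 1.67, SE 0.344, adjusted p = 0.00279). Fads1 was 1.88-fold higher, at 24.1 ± 1.45 against 12.8 ± 1.69 CPM (log2 0.91, SE 0.286, adjusted p = 0.0338), and Elovl6 1.72-fold higher, at 56.6 ± 2.09 against 33 ± 7.54 CPM (log2 0.78, SE 0.141, adjusted p = 0.00108). Scd2 did not pass, with a log2 difference of -0.03 (95% interval -0.31 to 0.25), and Scd1 had one of -1.30 (-2.30 to -0.30, adjusted p = 0.0656) with overlapping libraries. Fasn was at 43.1 ± 12.3 against 29.3 ± 8.55 CPM (log2 0.56, 0.13 to 0.99, adjusted p = 0.0669), also with overlap.

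On the oxidation side Etfb was 1.47-fold lower in KO, at 108 ± 18.8 against 160 ± 8.68 CPM (log2 -0.56, SE 0.143, adjusted p = 0.0119), and Slc25a20 1.52-fold lower, at 47.3 ± 6.09 against 71.7 ± 4.43 CPM (log2 -0.60, SE 0.194, adjusted p = 0.0402). Acot7 was at 386, 255 and 266 CPM in KO and 484, 405 and 407 CPM in WT (log2 -0.52, SE 0.147, adjusted p = 0.0206). In the other states Acot7 was at 236, 240 and 252 CPM in fresh WT, 325, 290 and 315 in fresh KO, 407, 403 and 360 in primed WT and 256, 328 and 364 in primed KO libraries. Acsl5 was lower by a small amount, at 104 to 107 against 122 to 129 CPM (log2 -0.25, SE 0.0818, adjusted p = 0.0419). Acot9 was at 119, 119 and 107 CPM in KO and 126, 126 and 136 CPM in WT (-0.17, adjusted p = 0.379), and in fresh cells at 92, 91.6 and 80.2 against 71, 98.3 and 94.2 CPM. Elovl7 was higher, and Slc25a20 and Etfb lower, in KO in both the primed and the NKG2D comparison, which share no library: 1 of the 5 and 4 higher members (20% and 25%) and 2 of the 5 and 4 lower ones (40% and 50%).

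Calls of Elovl6, Elovl7 and Fads2 held in every other fit tried. Those of Fads1 (log2 0.85 to 1.03) and Acsl5 (-0.27 to -0.22) were lost without any 1 of the 6 libraries, that of Slc25a20 without any 1 library but KO NKG2D replicate 1 (-0.70 to -0.52), that of Etfb without WT NKG2D replicate 3 or KO NKG2D replicate 3 (-0.71 to -0.50 over the 6), and that of Acot7 without WT NKG2D replicate 1 or KO NKG2D replicate 2 or 3 (-0.73 to -0.43). The count of 8 became 5 without any 1 of the WT NKG2D libraries or KO NKG2D replicate 2, and 3 without KO NKG2D replicate 3. The 4 lower members ranged from 0 without KO NKG2D replicate 3 to 7 without KO NKG2D replicate 1, were 1 without WT NKG2D replicate 1 or KO NKG2D replicate 2, and were 2 without WT NKG2D replicate 2 or 3. The 10 NK cell markers summed to 8991 to 10548 CPM in KO and 11929 to 13720 CPM in WT libraries of this state. They did not move together: 6 had a negative and 4 a positive log2 difference, and 4 passed as lower and 1 as higher. Gzma, the largest part of the sum, averaged 3516 CPM in KO and 5376 CPM in WT, and Nkg7 1923 and 1552 CPM. T cell markers summed to 27.6 to 27.9 CPM in KO and 42.2 to 67.4 CPM in WT. Of 6 tested T cell markers 4 had a negative and 2 a positive log2 difference, and 2 passed, both lower in KO. Among 8 tested myeloid markers 3 had a positive and 1 a negative log2 difference. Those that passed, higher in KO, were Itgam (206 against 114 CPM) and Cd68 (96.8 against 58.2 CPM). The myeloid list, carried mostly by Itgam, summed to 278 to 347 CPM in KO and 166 to 184 CPM in WT. Lyz2, C1qa, C1qb, Mpeg1, S100a8 and S100a9 averaged 0 CPM in both. The part of these cell types in the differences was not tested.

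The response to priming itself differed between genotypes for 6 of 37 members (2 higher and 4 lower in KO), where 10.5% of all tested genes passed the test of the difference (4.08% higher and 6.41% lower). Fasn rose further in KO, by 1.26 on the log2 scale (SE 0.284, 95% interval 0.66 to 1.86, adjusted p = 0.00983). Elovl7 fell less, by 1.27 (SE 0.311, adjusted p = 0.0151). Etfb rose less in KO, with a difference of -1.40 (SE 0.203, adjusted p = 0.000516), and Acaa2 and Slc25a20, which fell in KO cells, had differences of -1.03 (SE 0.181, adjusted p = 0.00203) and -0.995 (SE 0.279, adjusted p = 0.0301). Scd1 rose less in KO (-2.69, SE 0.836, adjusted p = 0.0485), a call that was lost without any 1 of the 12 libraries (-3.08 to -2.16). That of Slc25a20 was lost without any 1 of 7 libraries, which were WT fresh replicates 2 and 3, the 3 KO fresh libraries and WT primed replicates 1 and 2 (-1.23 to -0.70 over the 12). Without any 1 of those 7 the 4 lower members became 2, and without WT primed replicate 3 the 2 higher ones became 4. Fads1 (-0.02, 95% interval -0.97 to 0.94), Scd2 (0.24, -0.15 to 0.63) and Acaca (0.04, -0.53 to 0.61) did not pass.

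For the NKG2D response the test of the difference called 0 of 37 members, where 3.55% of all tested genes passed, with 12 at an unadjusted p under 0.05. DESeq2 called 1 (6.84% of all tested genes) and limma voom 10 (14.2%). For Fads2 it was 1.11 (95% interval 0.12 to 2.10, adjusted p = 0.214) and for Fasn -0.69 (-1.29 to -0.09, adjusted p = 0.203). For Cpt1a the difference was -0.24 (-0.60 to 0.12) and for Slc25a20 0.32 (-0.26 to 0.90). The count was 1 without WT primed replicate 3 or KO primed replicate 1 or 3.

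Genes of neighbouring pathways were counted from lists that held no member. Of 22 cholesterol synthesis and uptake genes, all rose on priming in both genotypes (medians 2.80 and 3.28), 19 and 20 fell after NKG2D (medians -1.49 and -1.68), and 15 were higher in KO when primed (median 0.71) and 14 after NKG2D (0.59), with 0 lower in either. Idi1, the isopentenyl diphosphate isomerase, averaged 546 CPM in KO and 166 CPM in WT primed cells. In the same fit 4 of 18 genes of the fatty acid synthesis side were higher and 1 lower in KO in each of these states (medians 0.13 and 0.07). This count depends on the fit. In primed cells the authors' deposited results also call Srebf1, Elovl5, Elovl6, Fads2 and Acsl3 higher, with Scd1 lower. After NKG2D they call Fasn higher as well, with Acaca, Scd1 and Acsl5 lower. The 8 genes that control SREBP1 held 1 that was higher in KO in both states, Insig1, which retains the SREBP escort protein in the endoplasmic reticulum (464 against 166 CPM primed and 122 against 50.7 CPM after NKG2D). Their list had 1 lower member when primed, Insig2, and 0 after NKG2D.

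Of 26 tested genes elsewhere in synthesis and esterification, 5 were higher and 3 lower in KO when primed and 2 higher and 4 lower after NKG2D. Mid1ip1, an activator of acetyl-CoA carboxylase, was at 43.8 against 23.2 CPM when primed. After NKG2D, Lpin1, a phosphatidate phosphatase, was at 131 against 76.1 CPM, and Hsd17b12, the ketoacyl-CoA reductase of elongation, at 62.9 against 96.9 CPM. Of 29 tested genes elsewhere in oxidation, 2 were higher and 4 lower in KO when primed and 5 and 3 after NKG2D. Decr1, the dienoyl-CoA reductase of mitochondria, was lower in KO in both (15.9 against 31.1 and 21.4 against 34.9 CPM), as was Hsd17b10, a hydroxyacyl-CoA dehydrogenase (69.9 against 122 and 100 against 151 CPM). On NKG2D, 8 of the 29 rose in WT and 18 in KO, with 0 lower in either, where 9.20% and 18.4% of all tested genes rose. Of 5 tested genes of uptake and lipid droplets, 3 were lower in KO when primed: Plin3 (3.97 against 20.4 CPM) and Plin2 (22.1 against 53.3 CPM), which coat droplets, and Hilpda, an inhibitor of their lipolysis (11.7 against 32.1 CPM). Plin2 and Plin3 were also the 2 lower ones after NKG2D.

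**Figure D5:**
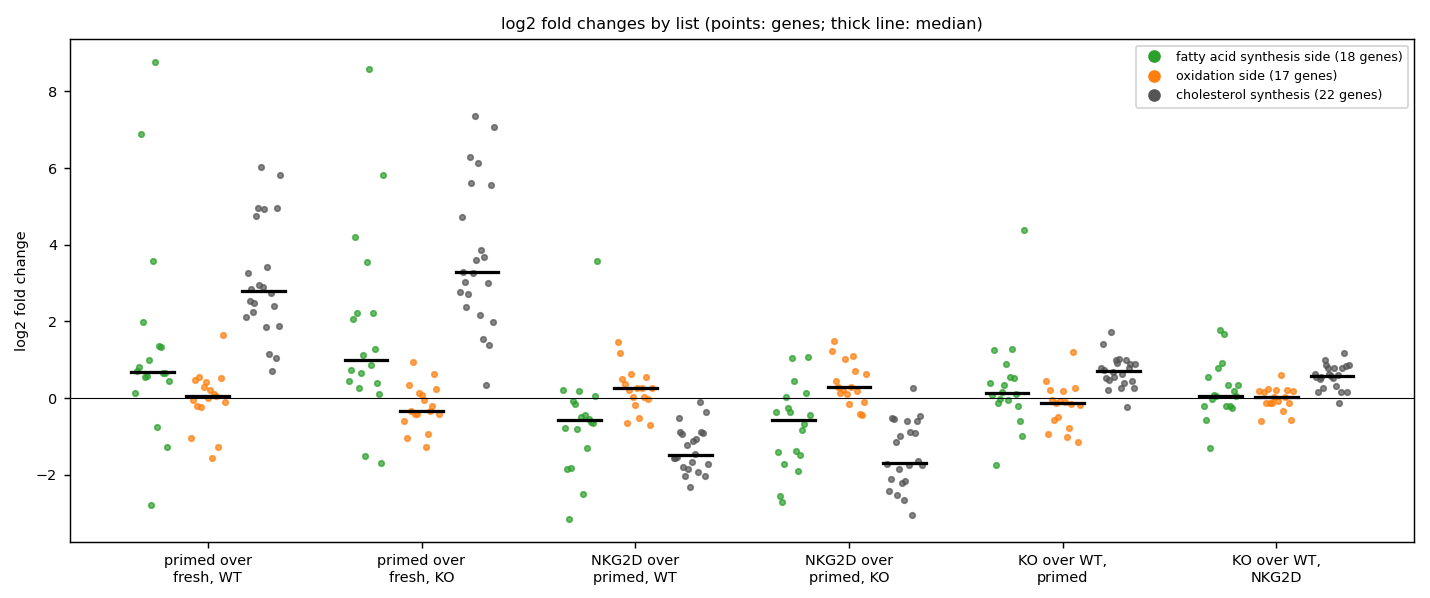
Log2 fold change of each tested gene (points) of the synthesis side (18), the oxidation side (17) and cholesterol synthesis (22), with the median as a thick line, in the 4 responses and the 2 genotype comparisons of cultured cells. Cholesterol medians run from 3.28 (primed over fresh, KO) to -1.68 (NKG2D over primed, KO), and synthesis-side medians from 1.00 to -0.58.

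The authors' deposited tables of KO against WT list 37 of the members. At adjusted p under 0.05 those tables called 7 higher and 4 lower in fresh, 13 and 6 in primed and 8 and 9 in NKG2D-stimulated cells, on a background of 14.3%, 31.2% and 45.5% of all genes they list. All 10 members called here in primed cells and all 8 after NKG2D were called there in the same direction. In the authors' deposited table of primed cells Fasn had a log2 fold change of 1.42 and Etfb one of -1.10.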

How the data were processed

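RNA was extracted from sorted NK cells (RNeasy) and libraries were made with SMARTer, per the labels' protocols. The authors deposited a table of expected counts per gene, of which 30.0% were not whole numbers; per the submitters' processing notes the tools were bcl2fastq, DRAGEN and edgeR and the build was mm10; tool settings and the annotation: not given in the sources used here. For each genotype comparison the authors deposited log2 fold changes and p-values, raw and adjusted, some of which are quoted in the results. The table held 55774 entries for 55487 identifiers.

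Expected counts were rounded and tested with edgeR 4.0.16 (quasi-likelihood, TMM factors, filterByExpr, 1 mean per group over all 18 libraries) in R 4.3.3, with Benjamini-Hochberg adjustment over 14864 genes within each comparison and a threshold of 0.05. Differences of response were contrasts of the same fit, with 12 residual and 5.14 prior degrees of freedom. Intervals are 95%. The test was tried on simulated counts with known changes. CPM per kb used exon lengths of GENCODE M21, and promoters came from RefSeq GRCm38.p6, with an entry for 32 of 38 members.

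The members and lists were chosen with earlier results of these data known. Values in every library are given for a fixed set of 16 genes (Srebf1, Acaca, Fasn, Scd1, Scd2, Elovl6, Fads1, Fads2, Acsl5, Gpam, Dgat2, Cpt1a, Acadm, Acadvl, Hadha, Etfb) and for members past the threshold in a genotype comparison or difference; Eci1, Acadl and Acaa1a were added after their values were seen, other members are given by means, ranges or counts, and other lists by counts with at most 3 examples of small p. Other fits were DESeq2 1.42.0, limma 3.58.1 voom with quality weights, RLE factors, no filter, the libraries of a comparison alone, a replicate block and leaving out each library.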

Additional observations from a re-analysis of the deposited data

Results flagged for a closer look

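The priming response of 6 members differed between genotypes by the test of the difference itself. On the log2 scale, KO minus WT, it was 1.26 for Fasn, 1.27 for Elovl7, -2.69 for Scd1, -1.40 for Etfb, -1.03 for Acaa2 and -0.995 for Slc25a20. Fasn rose 1.75-fold in WT and 4.19-fold in KO cells, while Etfb rose 3.14-fold in WT and did not pass the test in KO. Calls of Fasn, Acaa2 and Etfb held in every other fit tried, while those of Scd1, Elovl7 and Slc25a20 were each lost in at least 1.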

How the results depend on the processing

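Members called were recounted in the other fits, and no member reversed its direction in a comparison where it had been called. Reversals were not looked for where a member was not called. KO against WT in fresh cells went from 0 to 8 with voom, 2 with no filter and 4 with the fresh libraries alone, where these fits called 12.8%, 1.99% and 5.86% of all genes, and was 0 without any 1 library. In primed cells the 10 became 19 with voom and 4 alone (28.4% and 8.66% of all genes), and 5 to 10 over the leave-one-out fits. After NKG2D the 8 became 15 with voom (42.1% of all genes), and 3 to 11 over the leave-one-out fits. NKG2D against primed in KO went from 23 to 15 alone (26.01% of all genes). The genotype difference went from 6 to 12 with voom for priming (28.0% of all genes), and for NKG2D from 0 to 1 with DESeq2, 10 with voom and 5 with no filter (6.84%, 14.2% and 3.13%), with 0 to 1 over the leave-one-out fits. The cause of these moves was not tested. Fits with fewer samples estimate the spread from fewer libraries. They also do not share it with other states, and the coefficient of variation was 0.162 in fresh and 0.316 in primed cells. Other totals of rises and falls together stayed within 1.5 times; counts in 1 direction moved more, as given above. Calls held in every fit for 4 of 10 members in primed cells, 3 of 8 after NKG2D, 19 of 23 and 20 of 23 for priming in WT and KO, 10 of 16 and 14 of 23 for NKG2D, and 3 of 6 for the priming difference. Whether replicate numbers pair the samples is not settled. Correlations of same-numbered deviations ran from -0.15 to 0.13 over 7 comparisons, and in none were all above the set minimum of 0.1. In KO cells, primed against fresh, they were 0.036 to 0.124, above those of unlike numbers (-0.097 to 0.031). With a replicate block the counts were 0, 8, 6, 22, 23, 14, 18, 4 and 0, in the order fresh, primed and NKG2D genotype comparisons, priming in WT and KO, NKG2D in WT and KO, and the differences of priming and NKG2D response. Depth limits Fads2 and Scd1 in fresh cells, Dgat2 throughout and Acacb, which was not tested.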
